A study of Mus musculus with 6 samples.

Results

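The genes described here encode initiation and elongation factors of cytosolic translation, and kinases, binding proteins and methyltransferases named after them. They were taken as the protein-coding genes of chromosomes 1 to 19 whose symbol starts with Eif or Eef followed by a digit. In the GENCODE M21 annotation of the mouse genome GRCm38 (mm10) there were 65 such genes among 20722 protein-coding genes of these chromosomes. Without the kinases, binding proteins and methyltransferases 51 remain, but all 65 are called translation factor genes below. They were read in chromatin immunoprecipitation and sequencing (ChIP-seq) data from PGCLCs, primordial germ cell-like cells made in culture, at day 2. Primordial germ cells are the cells of the embryo from which oocytes and spermatozoa descend. The series has 6 samples of 129Sv/J strain cells, all untreated: 2 with an antibody against the HA tag, 2 with an antibody against histone H3 trimethylated at lysine 4 (H3K4me3) and 2 of input DNA. In these cells the Tex10 protein carries an HA tag at its C-terminus, so HA intervals stand for Tex10. The labels do not say whether the tagged cells come from 1 clone or several.

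The deposited data are 1 list of 4331 HA-Tex10 intervals and 1 list of 29072 H3K4me3 intervals, with no score, replicate or depth. No value below therefore has a replicate error and no difference was tested. The 95% Wilson intervals cover the counting of genes only. A gene was counted as having an interval if the interval lay within 1 kb of any of its protein-coding transcription start sites (TSS). H3K4me3 was present at 8 of 10 genes of the germ cell and pluripotent state, and absent at Dppa3 and Nanos3. It was also present at 5 of 7 genes of other cell types that the cultures could hold, with Col1a1 and Col3a1 lacking it. Of 6 tissue genes not due in these cells 1 had it, the muscle gene Actn3. Of all protein-coding genes of chromosomes 1 to 19, 62.6% had it. The median width of the widest interval was 1734 bp for the germ cell and pluripotent genes and 461 bp for those of other cell types. At Actn3 it was 2203 bp.

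Translation starts when the initiation factors bring the initiator tRNA, carried by eIF2, to the small ribosomal subunit, which eIF3 binds as a large scaffold. The cap-binding complex of eIF4E, eIF4G and the helicase eIF4A recruits the messenger RNA, and eIF1, eIF1A and eIF5 govern the choice of the start codon. eEF1A then delivers aminoacyl-tRNAs, its guanine nucleotides are exchanged by the eEF1B subunits, and eEF2 moves the ribosome along the message. Many of these messenger RNAs are regulated as a class through mTOR. H3K4me3 marks promoters, mostly those of active or poised genes. Tex10 is known as a subunit of a complex that takes part in ribosome assembly and as a chromatin factor in pluripotent cells.

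Of the 65 genes, 62 had H3K4me3 (95.4%, 95% Wilson interval 87.3 to 98.4%), against 62.6% of all protein-coding genes of chromosomes 1 to 19. An HA-Tex10 interval was present at 8 genes (12.3%, 6.37 to 22.5%), where 9.13% of all genes had one. Each of these 8 genes also had H3K4me3, so among marked genes the share was 12.9% (6.69 to 23.4%), beside 14.3% of all 12966 marked genes. The 8 genes are Eif1, Eif2s2, Eif4a1, Eif4g2, Eif4ebp1, Eif5a, Eef1a1 and Eef2. Of the HA-Tex10 intervals within 1 kb, the most distant from a TSS was that of Eif4ebp1, at 708 bp, and among the genes with none, the nearest to a TSS was that of Eef2kmt, at 1282 bp. When only intervals that contain a TSS were counted, 2 genes remained, Eef1a1 and Eif2s2, where 4.06% of all genes had one. Their share of marked genes was then 3.51%, beside 7.01% of all marked genes. With only intervals wider than the median of the list 4 remained, Eef1a1, Eef2, Eif4ebp1 and Eif5a, where 4.86% of all genes had one. The share of marked genes was then 6.45%, beside 7.67% of all marked genes. Leaving out intervals under 70 bp, a setting chosen after the values were seen, removed Eif1 and Eif4g2. The count was then 6, where 8.46% of all genes had one, and the share of marked genes 9.68%, beside 13.25% of all marked genes.

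The sequences printed here show part of the DNA that the HA-Tex10 list covers at these genes. Bases annotated as untranslated region were left out. The Eef1a1 interval has 86 such bases beside 206 of intron. The interval of 210 bp at Eif2s2, with 195 such bases and 15 of coding sequence, is not printed. All sequences are given on the strand of the gene, read from GRCm38. Each is the longest stretch of the interval free of bases annotated as untranslated region, with at most its central 300 bases. Capitals mark matches on either strand to the SP box GGGCGG, the NFY box CCAAT or the E-box CACGTG. The stretch shown for Eef1a1 is chr9:78481526-78481638 on the minus strand, for Eef2 chr10:81176727-81176955 on the plus strand, and for Eif4a1 chr11:69671567-69671787 on the minus strand. The others are Eif4g2 at chr7:111083097-111083159 (minus), Eif5a at chr11:69921452-69921751 (minus) and Eif4ebp1 at chr8:27261214-27261513 (plus).
Eef1a1: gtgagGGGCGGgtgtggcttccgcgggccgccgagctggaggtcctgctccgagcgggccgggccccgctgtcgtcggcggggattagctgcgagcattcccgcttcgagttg
Eef2: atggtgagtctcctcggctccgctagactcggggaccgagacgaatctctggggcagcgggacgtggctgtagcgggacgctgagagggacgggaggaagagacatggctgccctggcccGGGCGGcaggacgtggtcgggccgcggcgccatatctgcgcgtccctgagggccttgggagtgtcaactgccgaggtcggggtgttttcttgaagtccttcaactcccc
Eif4a1: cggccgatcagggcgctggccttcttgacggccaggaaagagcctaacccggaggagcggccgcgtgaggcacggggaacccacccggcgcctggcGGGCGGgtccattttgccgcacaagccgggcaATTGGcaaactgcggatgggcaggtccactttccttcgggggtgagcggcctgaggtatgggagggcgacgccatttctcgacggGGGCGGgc
Eif4g2: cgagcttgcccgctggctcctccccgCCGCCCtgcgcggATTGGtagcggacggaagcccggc
Eif5a: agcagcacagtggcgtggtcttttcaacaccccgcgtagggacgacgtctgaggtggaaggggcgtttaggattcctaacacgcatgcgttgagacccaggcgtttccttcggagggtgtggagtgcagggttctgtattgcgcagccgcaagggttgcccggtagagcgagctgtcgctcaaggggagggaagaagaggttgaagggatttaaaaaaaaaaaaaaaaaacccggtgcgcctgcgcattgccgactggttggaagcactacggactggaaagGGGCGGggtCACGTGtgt
Eif4ebp1: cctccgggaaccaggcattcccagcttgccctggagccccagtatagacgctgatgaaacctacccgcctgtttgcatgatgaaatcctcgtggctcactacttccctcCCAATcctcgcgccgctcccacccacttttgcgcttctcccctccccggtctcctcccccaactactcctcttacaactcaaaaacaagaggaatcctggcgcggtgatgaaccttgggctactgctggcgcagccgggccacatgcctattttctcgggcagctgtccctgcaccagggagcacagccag

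The narrow intervals of Eif1 and the upstream one of Eif2s2 are printed whole. They lie at chr11:100319467-100319490 and chr11:100319725-100319749 on the plus strand of Eif1, and at chr2:154892983-154893032 on the minus strand of Eif2s2. None of them holds any of the 8 motifs searched. Widths in the HA-Tex10 list go down to 1 bp, and how the edges of its intervals were set is not given. A small width is therefore read only as listed.
Eif1, distal interval: ccaaattttgatcacgttatttta
Eif1, proximal interval: aactaccatgcccactgcgcaagcg
Eif2s2, upstream interval: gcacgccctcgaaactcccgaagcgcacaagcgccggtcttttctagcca

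Among the factors of start codon recognition and subunit joining, 1 of 7 genes had HA-Tex10, where the share in marked genes of like width (defined with the bins below) corresponds to 1.57 genes. Eif1, whose product keeps the scanning ribosome from starting at a wrong codon, carried a pair of intervals of 24 and 25 bp, 395 and 136 bp upstream of its nearest TSS. Only 2.72% and 2.89% of the intervals in the list are narrower. The distal one lay inside an H3K4me3 interval of 206 bp. The proximal one lay between that interval, which ended 378 bp upstream of the TSS, and the main H3K4me3 interval of 2173 bp, which began 205 bp downstream. Without intervals under 70 bp, a setting chosen after the values were seen, Eif1 had none. The remaining genes of the group, Eif1a, Eif1ad, Eif1b, Eif5, Eif5b and Eif6, had H3K4me3 from 1435 to 3657 bp wide and no HA-Tex10. Eif1a (3657 bp) and Eif5b (3154 bp), the latter the GTPase that joins the ribosomal subunits, were among the 5 widest marked genes without it.

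The next group holds the genes for eIF2, which carries the initiator tRNA, for eIF2B, which reloads it with GTP, and for the separate factors eIF2A and eIF2D. Of its 9 genes 1 had HA-Tex10, where like width corresponds to 1.81 genes. Eif2s2, the beta subunit of eIF2, had an interval of 210 bp that contained a TSS and another of 50 bp, 48 bp upstream of its nearest TSS. Both fell in a single H3K4me3 interval of 3283 bp. Of the wider interval, 195 bases are annotated as untranslated region and 15 as coding sequence, and 26.8% of its 32-base words occur more than once in the genome, the largest share among the intervals at these genes. Eif2s1, the alpha subunit that is phosphorylated in stress, had H3K4me3 of 3060 bp and no HA-Tex10 within 161362 bp of a TSS. The 5 eIF2B subunit genes, Eif2b1 to Eif2b5, had H3K4me3 from 1453 to 2016 bp and no HA-Tex10, and so did Eif2a (3302 bp) and Eif2d (1458 bp).

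The 4 kinases that phosphorylate eIF2 in stress, Eif2ak1 to Eif2ak4, had the lowest median width of all groups, 765 bp. The widths were 1338 bp at Eif2ak1, 778 bp at Eif2ak2, 587 bp at Eif2ak3 and 752 bp at Eif2ak4, all under the median of 1360 bp over all marked genes. None had HA-Tex10, which for 0 of 4 genes allows a share of up to 75% if a count of 0 allows 3. The upper Wilson limit was 49.0%. At marked genes of like width the share was 8.37%, or 0.335 of 4 genes, so a count of 0 does not set the kinase genes apart.

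None of the 14 genes for eIF3, the scaffold on the small subunit, had HA-Tex10 within 1 kb, which allows a share of up to 21.4%. Of these genes 13 had H3K4me3, from 1178 bp at Eif3g to 2872 bp at Eif3a. In marked genes of like width, the share with HA-Tex10 was 17.9% on average, which corresponds to 2.32 of 13 genes. The distance from a TSS to the nearest HA-Tex10 interval ranged from 37865 bp at Eif3c to 3818283 bp at Eif3h. Eif3j2 lacked H3K4me3, while Eif3j1 had an interval of 2629 bp.

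Among the eIF4 factors 2 of 12 genes had HA-Tex10, where like width corresponds to 2.21 of the 11 marked ones. Eif4a1, the helicase that unwinds the messenger RNA leader, had an interval of 221 bp inside its gene, 530 to 750 bp downstream of the TSS. All 221 bases are intronic, and the interval lies within H3K4me3 of 2797 bp. It holds the SP box at 2 positions and an NFY box. Eif4g2 encodes a relative of eIF4G that does not bind eIF4E. Its interval of 63 bp lay 67 to 129 bp upstream of the nearest TSS, within H3K4me3 of 3162 bp, and had a GC content of 76.2%, the highest of the 10 intervals. Like Eif1, Eif4g2 had no interval left without those under 70 bp. Eif4a2, a second eIF4A gene, had H3K4me3 of 3986 bp, the widest of any gene of the 65 without HA-Tex10, and its nearest interval was 19905 bp from a TSS. The cap-binding protein gene Eif4e (2399 bp) and the scaffold genes Eif4g1 (2068 bp) and Eif4g3 (1480 bp) had none either. Eif4e3 had H3K4me3 of 513 bp, and Eif4e1b, an isoform known from oocytes, had no H3K4me3.

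Of the 4 genes for proteins that bind eIF4E, Eif4ebp1 alone had HA-Tex10, where like width corresponds to 0.498 of the 3 marked ones. It encodes the mTOR target that blocks eIF4E, and it had both the widest HA-Tex10 interval (654 bp) and the widest H3K4me3 (5820 bp, wider than or equal to that of 99.7% of marked genes) among the 65. The HA-Tex10 interval lay 708 to 1361 bp downstream of the TSS, wholly in an intron. Eif4ebp1 is the only one of the 65 genes on chromosome 8, where 41.2% of marked genes had HA-Tex10, against 7.69 to 16.2% on the other autosomes. Whether its interval reflects the chromosome was not tested. Eif4ebp2 had H3K4me3 of 1927 bp, Eif4enif1 257 bp, and Eif4ebp3 none.

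For eIF5A, which helps the ribosome over difficult peptide bonds and carries hypusine, Eif5a had HA-Tex10 and its paralog Eif5a2 did not, where like width corresponds to 0.226 of 2 genes. The Eif5a interval was 345 bp wide, from 387 to 43 bp upstream of the nearest of 9 TSS, and read as intron because other transcripts start farther upstream. Of its bases, 40 lay in an H3K4me3 interval of 1012 bp on its upstream side and none in that of 1558 bp, which began 293 bp downstream of the TSS. Eif5a2 had H3K4me3 of 662 bp.

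Among the 7 elongation factor genes, Eef1a1 and Eef2 had HA-Tex10, where like width corresponds to 1.40 genes. Eef1a1, the main source of eEF1A, had an interval of 292 bp that contained a TSS, from 93 bp upstream to 198 bp downstream. That TSS is not the most upstream of the 3 of the gene, from which the interval lies 7334 to 7625 bp downstream, and Eef1a1 was not counted when only the most upstream TSS was used or in the further list of intervals that meet H3K4me3. The HA-Tex10 interval met no H3K4me3 interval: the mark ended 288 bp upstream (849 bp wide) and began again 507 bp downstream (2238 bp wide). Its bases were 86 of untranslated region and 206 of intron, with a GC content of 69.2%. The 93 bases upstream of the TSS inside it are among those read as intron, because the gene has a TSS farther upstream. Eef2 had an interval of 256 bp, from 69 to 324 bp downstream of its TSS, of which 27 bases were untranslated region, 3 coding and 226 intronic. The H3K4me3 interval there was 2522 bp wide and began 52 bp downstream. Another HA-Tex10 interval of 219 bp lay in Eef2, 1160 bp from the TSS, and so outside the window. The eEF1B subunit genes Eef1b2 (3125 bp), Eef1d (2521 bp) and Eef1g (2782 bp) had wide H3K4me3 and no HA-Tex10. Eef1e1 (1666 bp), which encodes a partner of the aminoacyl-tRNA synthetase complex, had none. Eef1a2, the isoform of muscle and neurons, had the narrowest H3K4me3 of the 65 genes, 249 bp.

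The kinase of eEF2 and the methyltransferases of both elongation factors made up 6 genes, all with H3K4me3, from 1105 bp at Eef2k to 2737 bp at Eef1akmt4. None had HA-Tex10 within 1 kb, which by the same rule allows a share of up to 50% (upper Wilson limit 39.0%), and like width corresponds to 0.939 genes. At Eef2kmt an interval of 191 bp lay in the gene at 1282 bp from a TSS, and it was counted only when the window was set to 2.5 kb.

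**Figure D1:**
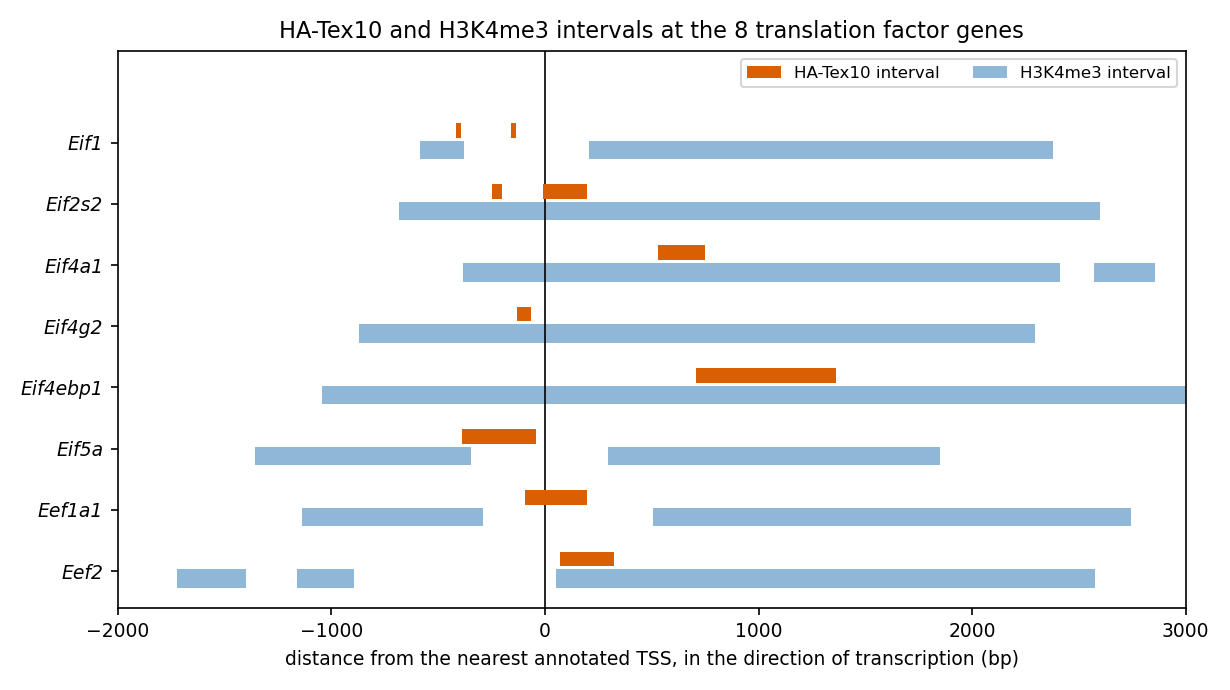
Each row shows one of the 8 genes with HA-Tex10, with HA-Tex10 intervals (orange) and H3K4me3 intervals (blue) by distance in bp from the TSS nearest to the HA-Tex10 interval, positive in the direction of transcription. Both Eif2s2 intervals are drawn from the TSS inside the wider one. At Eif1, Eif5a, Eef1a1 and Eef2 the H3K4me3 list leaves a stretch around the TSS uncovered, and the Eif4ebp1 mark runs on to 4777 bp, past the edge of the plot.

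The 10 intervals at these 8 genes differed in place and width. By their nearest TSS of the gene, 5 lay upstream, 2 contained a TSS and 3 lay downstream. Of all 1771 HA-Tex10 intervals at a TSS, 31.0% lay upstream, 44.2% contained a TSS and 24.8% lay downstream. The median width was 215.5 bp, against 234 bp for all intervals at a TSS, and 4 of 10 were under 70 bp, against 9.43% of all. None lay mostly in repeated sequence, whereas 7.34% of all intervals at a TSS did. H3K4me3 was met by 8 of 10, beside 90.3% of all. Of the 8 genes, 4 had 2 or more separate H3K4me3 intervals at their TSS, as did 6 of the 54 marked genes of the set without HA-Tex10. Over all marked genes these shares were 25.7% with HA-Tex10 and 19.1% without. The number of other HA-Tex10 intervals within 500 kb was 2 at Eef1a1, 3 at Eif1, Eif2s2 and Eif4g2, 9 at Eif4a1 and Eif4ebp1, 13 at Eif5a and 17 at Eef2. Eif4a1 and Eif5a lie close together on chromosome 11, and the interval of each is counted among the neighbours of the other.

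**Figure D2:**
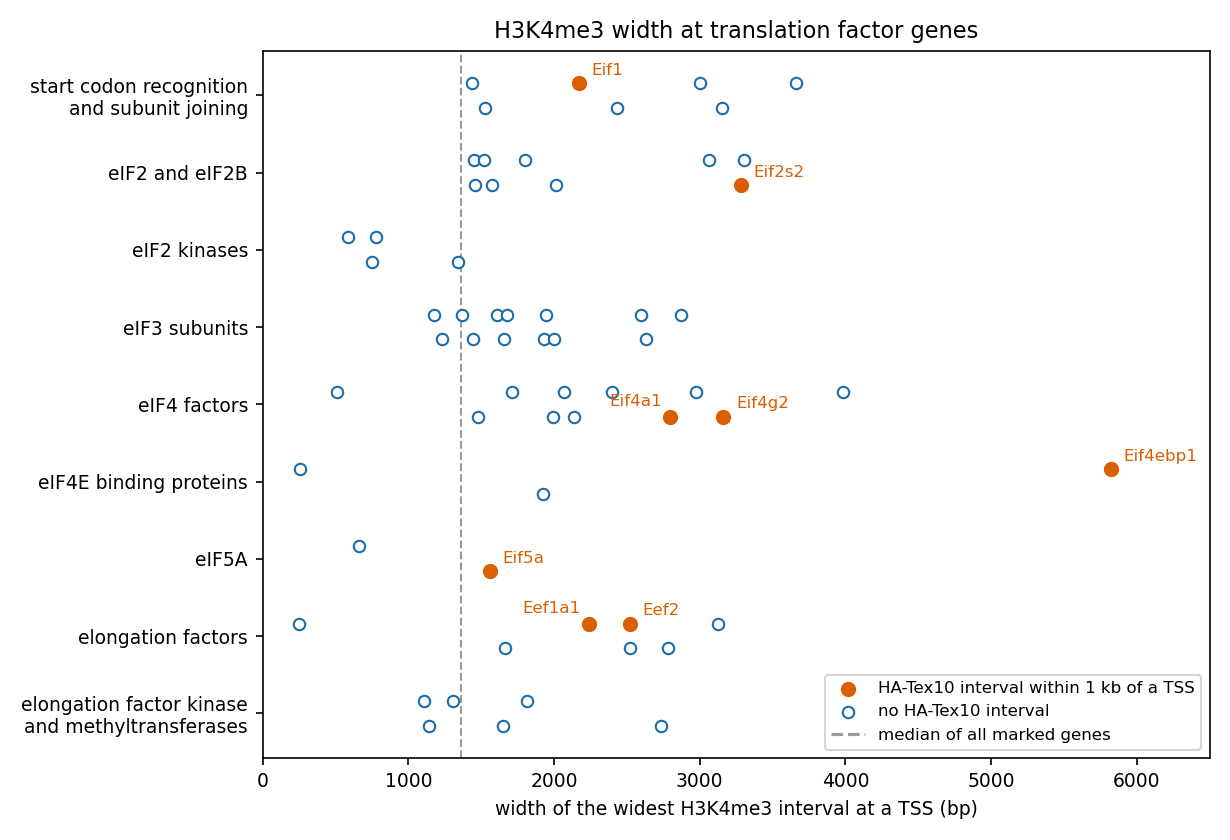
Each point is a marked gene, placed by the width in bp of its widest H3K4me3 interval within 1 kb of a TSS, in rows by the role of the factor. Filled orange points are the 8 genes with an HA-Tex10 interval, and the dashed line is the median of all marked genes, 1360 bp. All 8 lie to the right of the line, and the 4 eIF2 kinases lie to its left.

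H3K4me3 at the translation factor genes was wider than over all marked genes, but not the widest among genes of translation. Of the sets described further below, cytosolic ribosomal protein genes had a median of 2574.5 bp and the other translation genes 1678 bp. For the translation factor genes the median of the widest interval was 1872 bp (interquartile range 1447 to 2621.5 bp, n = 62), against 1360 bp (879 to 1981 bp) over all marked genes. Of the 62 genes, 49 lay above 1360 bp. Intervals of 3000 bp or more were found at 10 of the 62 (16.1%), against 6.59% of all marked genes. Of these 10 genes 3 had HA-Tex10, namely Eif2s2, Eif4g2 and Eif4ebp1, and of all marked genes with such an interval 27.4% had it. The 8 genes with HA-Tex10 had a median of 2659.5 bp (lowest 1558 bp, highest 5820 bp), and the 54 without it 1695.5 bp (lowest 249 bp, highest 3986 bp), so the groups overlapped over most of their range. Among all marked genes the corresponding medians were 1756 and 1294 bp.

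Since genes with wide H3K4me3 carry HA-Tex10 more often, the genes were set beside marked genes of like width. All marked genes were ranked by width and divided into 10 bins of equal number. Among the other genes, the share with HA-Tex10 was 4.71% in the narrowest bin and 26.6% in the widest. Averaged over the bins of the 62 genes it was 18.2%, which corresponds to 11.3 genes, where 8 were observed. The observed share of 12.9% was below this value, and its Wilson interval of 6.69 to 23.4% contains it. Without chromosome 8, 7 of 61 genes had HA-Tex10 (11.5%), beside 15.9% of other genes of like width and 12.7% of all marked genes. For the factors alone, without kinases, binding proteins and methyltransferases, the count was 7 of 49 marked genes (14.3%, 7.10 to 26.7%), beside 19.5% at like width.

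**Figure D3:**
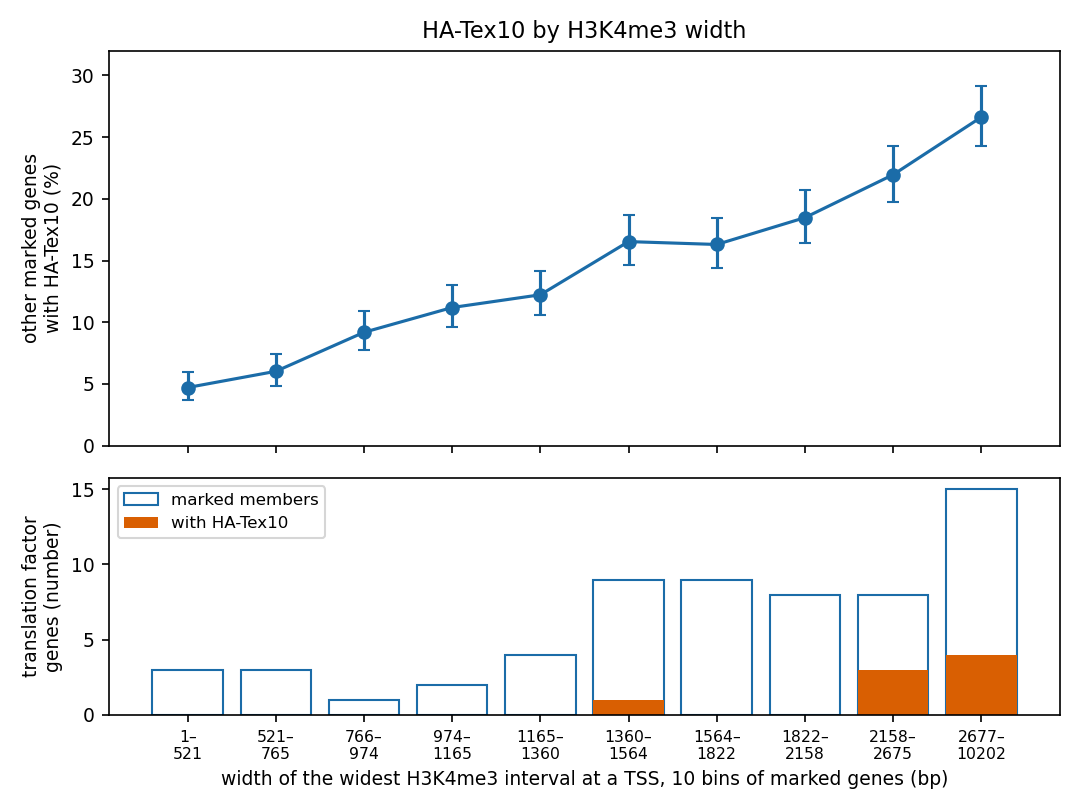
The upper panel gives the percentage of other marked genes with HA-Tex10 in each of 10 bins of H3K4me3 width in bp, with 95% Wilson intervals. The lower panel gives the number of translation factor genes in each bin (open bars) and of those with HA-Tex10 (orange). The percentage goes from 4.71% in the narrowest to 26.6% in the widest bin, the widest bin holds 15 translation factor genes with 4 of the 8, and the 13 genes of the 5 narrower bins hold none.

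Gene structure was read for features that the symbol rule did not use. The 8 genes with HA-Tex10 were short, with a median length of 8285.5 bp (lowest 2212 bp at Eif1, highest 21526 bp at Eif2s2), against 18756 bp for the 57 without it. Over all marked genes the median was 24570.5 bp, and over those with HA-Tex10 it was 18502 bp. Small nucleolar RNA (snoRNA) genes lay inside 9 of the 65 genes on the same strand, and 3 of these 9 had HA-Tex10: Eif4a1, Eif4g2 and Eef2. Of the 56 others 5 had it. Of all marked genes with a snoRNA gene inside, 59 of 228 had HA-Tex10 (25.9%).

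A TSS of another protein-coding gene lay within 1 kb at 13 of the 62 marked genes, such as Eif2a beside Serp1, Eif5b beside Txndc9 and Eef1b2 beside Ndufs1. None of the 13 had HA-Tex10, which allows a share of up to 23.1%. Their median H3K4me3 width was 2599 bp, against 1860 bp for all marked genes with such a neighbour. A like-width share was not computed for these 13 genes. Of all marked genes with such a neighbour, 601 of 2494 had HA-Tex10 (24.1%), and of those without one, 1253 of 10472. All 8 genes with HA-Tex10 were among the 49 without a neighbouring coding TSS (16.3%), so each of the 10 intervals lay within 1 kb of a TSS of 1 coding gene only.

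Promoter sequences of RefSeq on GRCm38.p6, from 250 bases before to 50 after each annotated start, were found for 49 of the 65 genes, with 64 starts. Of the 8 genes with HA-Tex10, 6 had one. The upstream 250 bases are printed for Eef1a1 and Eef2, which had HA-Tex10, and for Eif4a2 and Eif3f, which did not, as examples of both kinds. Capitals mark the motifs searched in this window, which here are the SP box in Eef1a1 and Eif4a2, the E-box and TATAAA in Eef2, and the E-box, the NFY box and TATAAA in Eif3f. Of the Eef1a1 bases, the last 93 lie in the HA-Tex10 interval. The positions are chr9:78481725-78481974 on the minus strand for Eef1a1 and, on the plus strand, chr10:81176381-81176630 for Eef2, chr16:23107218-23107467 for Eif4a2 and chr7:108934165-108934414 for Eif3f.
Eef1a1 promoter: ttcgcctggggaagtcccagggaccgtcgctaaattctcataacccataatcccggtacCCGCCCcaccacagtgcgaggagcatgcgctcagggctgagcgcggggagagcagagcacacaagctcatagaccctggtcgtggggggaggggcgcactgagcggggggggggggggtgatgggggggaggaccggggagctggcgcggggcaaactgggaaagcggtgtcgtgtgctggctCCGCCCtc
Eef2 promoter: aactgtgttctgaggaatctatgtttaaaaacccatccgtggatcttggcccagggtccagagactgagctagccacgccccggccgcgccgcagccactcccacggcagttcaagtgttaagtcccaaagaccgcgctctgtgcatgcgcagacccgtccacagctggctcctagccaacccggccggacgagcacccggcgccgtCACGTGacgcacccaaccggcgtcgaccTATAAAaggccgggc
Eif4a2 promoter: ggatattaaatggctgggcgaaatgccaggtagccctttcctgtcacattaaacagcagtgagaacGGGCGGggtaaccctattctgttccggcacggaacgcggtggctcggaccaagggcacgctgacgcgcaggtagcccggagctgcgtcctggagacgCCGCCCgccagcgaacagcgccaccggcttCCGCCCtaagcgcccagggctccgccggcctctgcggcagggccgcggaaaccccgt
Eif3f promoter: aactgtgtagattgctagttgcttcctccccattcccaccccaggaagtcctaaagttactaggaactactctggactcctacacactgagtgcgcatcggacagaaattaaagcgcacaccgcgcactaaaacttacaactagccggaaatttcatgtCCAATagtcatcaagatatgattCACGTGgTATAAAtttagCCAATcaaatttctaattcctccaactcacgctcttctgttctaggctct

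The motifs were searched on both strands, and the share of the 64 promoters of the set is given beside that of 12884 promoters of marked genes. A match is a description of the letters only. The SP box GGGCGG was found in 68.8% against 64.3%, and the NFY box CCAAT in 26.6% against 37.3%. The ETS motif CCGGAAG was found in 29.7% against 16.7%, and the E-box CACGTG, the form bound by Myc, in 23.4% against 9.83%. TATAAA was found in 6.25% against 6.50%. CRE (TGACGTCA) and the NRF1 and YY1 motifs each occurred in 1 of the 64 promoters. A tract of C followed by 4 or more C or T, starting within 5 bases of the annotated start as in messenger RNAs with a terminal oligopyrimidine tract, was present in 21.9% against 19.6%. The median number of CpG was 23 against 21, and the median GC content 62% against 61.7%. In the 10 HA-Tex10 intervals the SP box was present in 6, the NFY box in 3 and the E-box in 2, with GC content from 25% to 76.2%. These intervals were 24 to 654 bp wide, and no share over other HA-Tex10 intervals was computed. The 3 counts therefore have no background and do not set these intervals apart. Genes with several starts count several times in these shares, and Eif5a alone gave 6 of the 64 promoters, 3 of them with an E-box.

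Other genes of translation were read from 6 lists of 78 genes matched on chromosomes 1 to 19. Of these, 77 had H3K4me3 and 21 had HA-Tex10 (26.9%, 18.3 to 37.7%), where 9.13% of all genes had it. Termination and recycling had 4 of 10, with Etf1, the release factor, and Abce1, which splits ribosomes, together with Hbs1l and Abcf2. Translation control signalling had 6 of 14: Atf4 and Ddit3 of the stress response, the kinases Rps6kb1 and Mknk2, and Tsc1 and Rheb upstream of mTOR. Partners of the cap and the poly(A) tail had 4 of 13, Pabpc1, Paip2, Larp4 and Dhx29. Aminoacyl-tRNA synthetases and their scaffold had 5 of 21, Farsb, Kars, Sars, Tars and Aimp2, and mitochondrial translation factors 2 of 10, Gfm2 and Mtif2. The list of hypusine, selenocysteine and diphthamide genes had 0 of 10, where a count of 0 allows 3. Its median H3K4me3 width was 1150 bp, beside 1125 bp for the mitochondrial factors and 1678 bp over all lists. Abce1 and Kars lie on chromosome 8.

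At Pabpc1, which encodes the main cytosolic poly(A)-binding protein, the interval was 219 bp wide and lay 69 bp upstream of a TSS. At Abce1 it was 578 bp wide and contained a TSS, as did that of Atf4, at 331 bp. Among the marked genes of these lists 27.3% (18.6 to 38.1%) had HA-Tex10, beside 16.7% of marked genes of like width. Cytosolic ribosomal protein genes, taken by symbol, had it at 31 of 78 marked genes (39.7%, 29.6 to 50.8%), beside 22.2% at like width. The Eif and Eef genes, at 12.9%, stood below their like-width share and both other sets above theirs. The lists were chosen by name, with earlier results of these data known, and the differences between them were not tested. The Wilson intervals do not cover that choice.

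**Figure D4:**
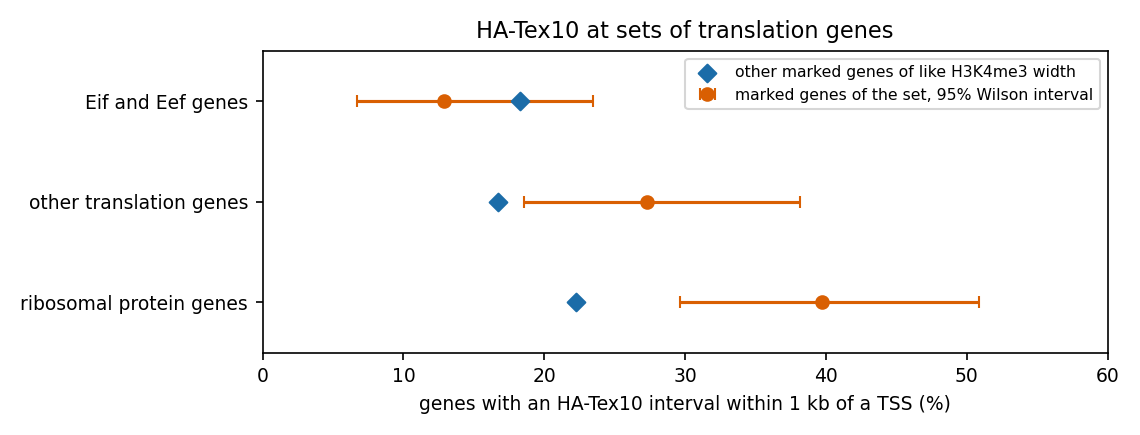
The x axis gives the percentage of marked genes that had HA-Tex10. Orange points are the 62 Eif and Eef genes, the 77 other translation genes and the 78 ribosomal protein genes with 95% Wilson intervals, and blue diamonds are the shares in other marked genes of like H3K4me3 width. The diamond at 18.2% lies inside the interval of the Eif and Eef genes, and those at 16.7% and 22.2% lie to the left of the intervals of the other sets. The intervals do not cover the choice of the lists, made with earlier results of these data known.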

How the data were processed

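The files deposited by the authors are BED lists of intervals, 1 per antibody and a further HA-Tex10 list, with start and end in bp and no score. Per the submitters' processing notes, reads were handled with Bowtie2 2.3.4.3, SAMtools 1.9, MACS2 2.1.2 and HOMER on mm10, with no roles given. How replicates, inputs and thresholds were used is not given in the sources used here. The 2990 distinct intervals of the further list are the HA-Tex10 intervals that share at least 1 bp with H3K4me3, so it served only as an alternative.

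Distances were taken to the starts of protein-coding transcripts of GENCODE M21. No interval of either list on an assembled chromosome reached beyond that chromosome's length in GRCm38. A gene's width was that of its widest H3K4me3 interval within 1 kb of a TSS. The like-width share averages, over the genes, the share among other marked genes of the same of 10 bins. Intervals, with narrow ones widened to 100 bp, were called mostly repeated when more than 50% of their 32-base words were found at several places in the genome. Shares have 95% Wilson intervals (SciPy 1.17.1), and a count of 0 allows 3 counts. The assignment of intervals to genes was tested on simulated data. The members and gene lists were chosen with earlier results of these data known. Genes named were those with HA-Tex10, those without H3K4me3, the 5 widest marked ones without HA-Tex10, the 3 narrowest, genes of the eIF2, eIF3, eIF4 and eEF1/eEF2 groups, and listed genes with HA-Tex10. The eIF2 kinases and the remaining regulators, start codon factors and Eif5a2 were named after their values were seen. Gcn1 and Mars1 of the lists had no match by symbol, and Ddx3x is X-linked.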

Additional observations from a re-analysis of the deposited data

How the results depend on the processing

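No paired analysis was possible because no replicate has values of its own in the lists, and for the same reason none could be left out in turn. Read depth is unknown, so genes such as Eif4a2 or Eif3a that had no HA-Tex10 interval are not shown to lack Tex10. Of 45 values under alternatives, 32 stayed within a factor of 1.5 for counts, or within the 95% interval of the main value for shares and widths, and 13 moved. When an interval had to contain a TSS, the count of Eif and Eef genes with HA-Tex10 was 2, their share of marked genes 3.51%, the like-width share 8.47% and the count of other translation genes 11. With HA-Tex10 intervals wider than the median of the list these values were 4, 6.45%, 10.1% and 9. The like-width share, whose interval is narrow because it rests on all other marked genes, also moved to 19.7% with a 2.5 kb window, 17.5% with the most upstream TSS only, 15.9% without chromosome 8, 17.5% without mostly repeated intervals and 17.0% without intervals under 70 bp, the last chosen after seeing the data. The share of the Eif and Eef genes was below the like-width share in each of these settings. The settings reuse the same genes and intervals, so they are not independent of each other. In the main setting the Wilson interval of 6.69 to 23.4% contains the like-width share of 18.2%.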

Other observations

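Genes of the same families outside chromosomes 1 to 19 were read with the same window. Eif1ax and Eif2s3x, the X-linked genes for eIF1A and the gamma subunit of eIF2, had H3K4me3 of 1158 and 1090 bp and no HA-Tex10. Eif2s3y on the Y chromosome had neither. Of 10 pseudogenes named after Eif or Eef genes, 0 overlapped an HA-Tex10 or an H3K4me3 interval, which allows a share of up to 30%.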
